A study of Mus musculus with 4 samples.

Results

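Atf5 and 9 other genes of the integrated stress response were followed in RNA of exosomes, small vesicles that mesenchymal stem cells (MSCs) of rat bone marrow release in culture. The 10 genes, taken by symbol, were Atf5, Atf4, Atf3, Ddit3, Xbp1, Trib3, Asns, Sesn2, Ppp1r15a and Chac1. All 10 were found among the 42977 genes of the deposited table, and all 10 were among the 33480 genes that passed the filter on low counts. Atf5 was singled out because its values had already been seen to separate the groups and because DESeq2 had called it (adjusted p = 1.30e-07). Its difference between the groups, and those of the 9 genes listed with it, are therefore given as a description without a test.

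For the 2 MSC-Exo libraries the cells had DMSO, the solvent. For the 2 MSCATV-Exo libraries they had atorvastatin at 1 µmol/L, a statin that blocks cholesterol synthesis. All cells were from male SD rats of 6 to 8 weeks and were used at passages 3 to 4, in medium freed of exosomes before use. The length of the pretreatment is given as 24 h in some labels and 48 h in others, and the organism field says mouse where the protocol, the genome build and the gene identifiers are of rat. Whether the 2 libraries of a group are of separate animals or cultures is not said, so the spread between them may be technical. Each SD measures that spread for the gene named. Each SE is from the edgeR fit, which draws on the spread of all tested genes, so it is not the gene's own scatter alone.

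In the integrated stress response, kinases that sense amino acid shortage, misfolded protein in the endoplasmic reticulum, viral RNA or lack of haem phosphorylate the initiation factor eIF2. General protein synthesis then slows, while mRNAs with certain upstream reading frames, among them Atf4, Atf5, Ddit3 and Ppp1r15a, are translated more. ATF4 turns on genes for amino acid supply and, with CHOP, genes that shut the response off or lead to cell death. RNA levels do not show this translational step, and RNA in vesicles is a selected part of the RNA of the cells. The levels compared here are scaled to each library's total, so they show neither the number of vesicles nor the amount of an RNA per vesicle.

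The libraries held 5350295 to 5947020 gene counts. MSCATV-Exo replicate 1 had the fewest genes with a count, 34813 against 36170 to 37318 in the others. The MSC markers had a summed level of 256 to 287 RPKM (reads scaled by gene length and by the library total) in MSC-Exo and 282 to 292 in MSCATV-Exo, mostly from Vim, while Col1a2 was listed at 0 in all 4 libraries and 2 of 6 tested markers had a log2 fold change above 0. Leukocyte markers summed to 30.3 to 35.4 against 22.5 to 26.6 RPKM and endothelial markers to 22.9 to 23.4 against 16.2 to 17.7, with 2 of 6 and 1 of 4 tested markers above 0. No marker of these 2 lists was at 0. Erythroid (11.5 to 21.8 against 11.2 to 14.0), hepatocyte (21.0 to 23.0 against 22.3 to 25.8), adipocyte (14.5 to 22.6 against 13.8 to 16.6) and osteoblast markers (15.4 to 16.3 against 15.4 to 15.7) overlapped between groups, with 1 of 3, 3 of 4, 2 of 3 and 2 of 3 tested markers above 0. Hbb was at 0 in MSC-Exo replicate 2 and MSCATV-Exo replicate 1, and Fabp4 in MSC-Exo replicate 1. The part of these markers in the results was not tested.

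Atf5 encodes a basic leucine zipper transcription factor that is close kin to ATF4. It was one of the most abundant messages in these exosomes. Its level in replicates 1 and 2 was 230.1 and 234 RPKM for MSC-Exo and 328 and 355 RPKM for MSCATV-Exo. Over the 4 libraries its mean of 287 RPKM was 10th among 22633 protein-coding genes, between Rplp0 (291 RPKM), a ribosomal stalk protein gene, and Tmsb10 (279 RPKM), a thymosin gene. Its rank by library was 13, 15, 7 and 9 in the same order. Among the 234 protein-coding genes whose deposited description contains the words transcription factor, Atf5 was the most abundant by mean RPKM. The next was LOC683469 at 55.1 RPKM, then Btf3 at 18.6 and Atf4 at 17.3, and the median of that class was 5.46 RPKM.

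**Figure D1:**
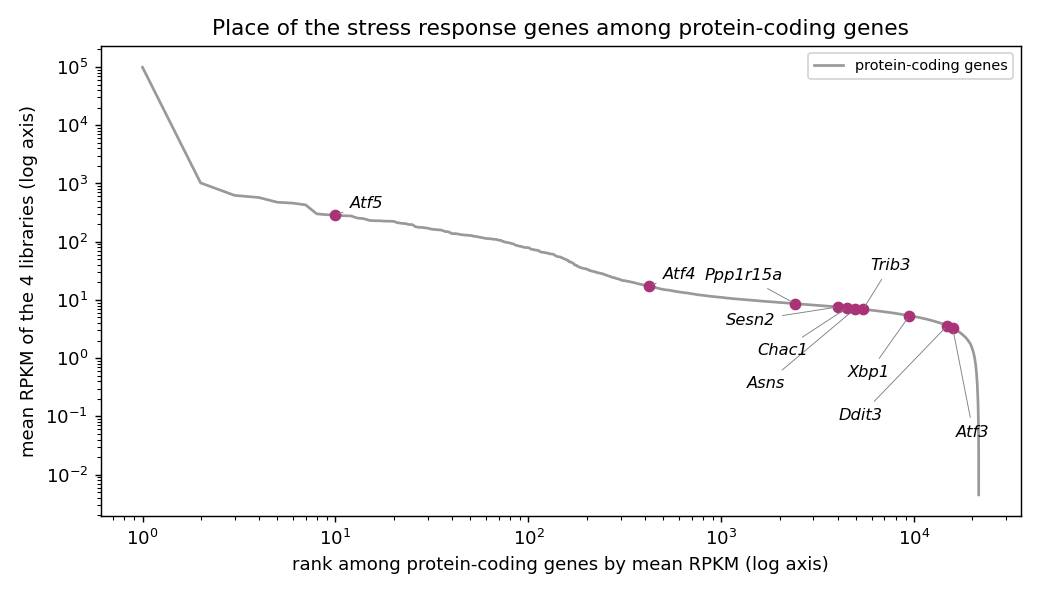
Mean RPKM of the 4 libraries (vertical log axis) against rank among protein-coding genes (horizontal log axis), with the 10 stress response genes as points on the grey curve of all protein-coding genes. Atf5 stands at rank 10, Atf4 at rank 420, and the other 8 genes lie between ranks 2412 and 15805, on the flat stretch near the median.

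The other 9 genes were far lower. By mean RPKM the order was Atf5 (287), Atf4 (17.3), Ppp1r15a (8.63), Sesn2 (7.58), Chac1 (7.34), Asns (7.12), Trib3 (6.89), Xbp1 (5.38), Ddit3 (3.61) and Atf3 (3.27). Atf5 exceeded Atf4 by 17.5, 19.6, 14.0 and 17.2 times in RPKM in the 4 libraries, and Atf4 exceeded the 8 genes after it in each of the 4 libraries. From Ppp1r15a to Atf3 each gene and its neighbour in the order had ranges over the libraries that overlapped. Atf5 alone supplied 79.6%, 82.6%, 85.7% and 86.5% of the counts of the 10 genes. The 9 genes without it summed to 72.4 and 59.3 RPKM in MSC-Exo and 66.1 and 70.6 RPKM in MSCATV-Exo, with no separation of the groups.

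The level of those 8 genes was that of most of the table. The median protein-coding gene had 4.74, 4.70, 4.12 and 4.54 RPKM in the 4 libraries, and 69.6% of protein-coding genes had a mean of 3 to 12 RPKM. The median of 1188 olfactory receptor genes, which MSCs are not known to use, was 2.47, 2.36, 1.71 and 2.28 RPKM. Hepatocyte markers such as Alb (3.25 RPKM) and Ttr (7.46 RPKM) had means in the same range as Ddit3 and Sesn2. Atf5 was 93.3, 99.3, 192 and 156 times the olfactory receptor median, and Atf4 was 5.32, 5.06, 13.8 and 9.07 times it. Atf3 ranged from 0 to 2.45 times that median and Ddit3 from 0.583 to 2.90 times. What share of the reads of the 8 lower genes follows their expression was not tested.

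**Figure D2:**
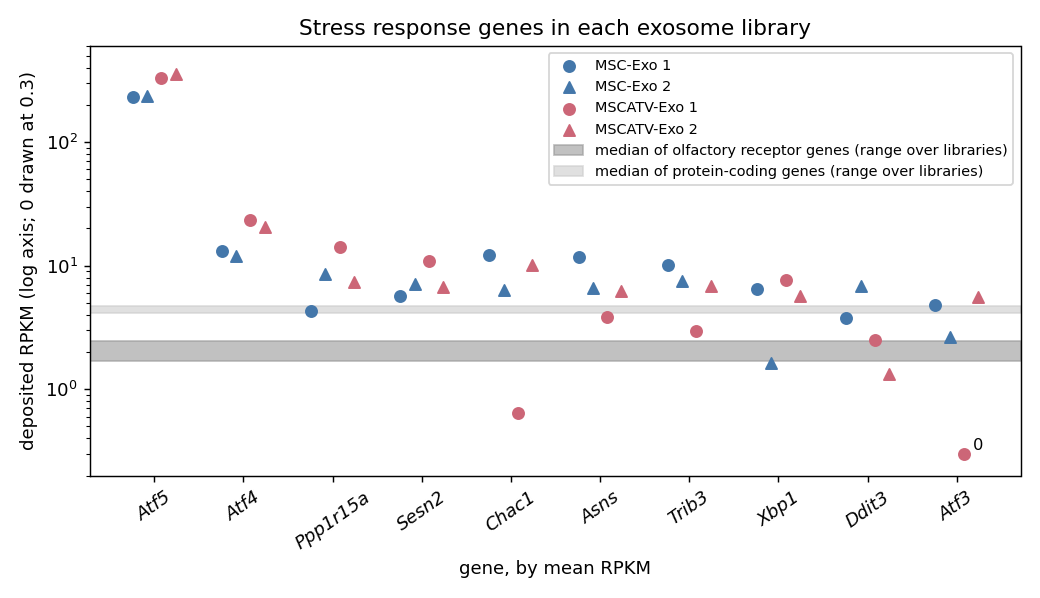
Deposited RPKM of each of the 10 genes in each library (vertical log axis, a value of 0 drawn at 0.3), with MSC-Exo in blue and MSCATV-Exo in red, circles for replicate 1 and triangles for replicate 2, and grey bands for the range of the class medians. Atf5 lies near the top from 230.1 to 355 RPKM, Atf4 follows from 11.9 to 23.5, and the other 8 genes scatter around the bands, with Chac1 (0.643 RPKM) and Atf3 (0) lowest in MSCATV-Exo replicate 1.

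Between the groups Atf5 stood higher in both MSCATV-Exo libraries. The MSC-Exo libraries held 2858 and 2907 counts of it, and the MSCATV-Exo libraries 4533 and 4618. In CPM (counts brought to the same library total with TMM factors) these were 515 and 531 against 829.7 and 823. The replicates differed by 1.03 times in MSC-Exo and 1.01 times in MSCATV-Exo. The group means of 523 ± 11.4 and 827 ± 4.40 CPM (SD, n = 2) were 1.58-fold apart, with a log2 fold change of 0.66 ± 0.14 (SE of the edgeR fit). With a library left out the log2 fold change was 0.63 to 0.69, the narrowest range of the 10 genes.

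Abundant genes as a class also stood higher in MSCATV-Exo. Of the 74 tested protein-coding genes with a mean of at least 100 RPKM, 86.5% had a log2 fold change above 0, and their median was 0.27. For the 6890 genes from 6 to 12 RPKM the share was 54.3% and the median 0.05. The groups did not overlap, in either direction, for 60.8% of the 74 genes and 32.9% of the 6890. From 12 to 24 RPKM, the level of Atf4, they did not overlap for 40.8%. Among the 20 most abundant protein-coding genes, Fth1, a ferritin gene, had a log2 fold change larger than that of Atf5 (0.68 ± 0.20, SE), and Tpm4, a tropomyosin gene, came next after Atf5 (0.63 ± 0.20, SE). Whether the difference of Atf5 exceeds that of its class was not tested.

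Atf5 lies on chromosome 1 from 100807821 to 100812410 on the minus strand of the rat build named rn6, with a length of 2321 bases of transcript in the table. It shares 1271 bases of its locus with Nup62, which encodes a nuclear pore protein, and 684 bases with Il4i1, which encodes an amino acid oxidase. Both lie on the plus strand, and the library kit does not mark strand. Nup62 had 6.32, 9.84, 5.13 and 8.77 RPKM in the 4 libraries and Il4i1 had 8.75, 13.2, 10.5 and 7.17 RPKM. Their log2 fold changes were -0.13 ± 0.40 and -0.20 ± 0.34 (SE). Reads in the shared stretches cannot be assigned to a strand, and how they were counted is not given in the sources used here. No other row carried the description of Atf5, so no pseudogene or copy was listed under its name.

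The 5 genes most like Atf5 across the 4 libraries were Zeb2, Cald1, Arhgap11a, LOC108351947 and Myl9. Likeness was the distance between log2 CPM profiles, each centred on its own mean, among the 299 genes with a mean of at least 100 CPM. Zeb2, a zinc finger transcription factor gene, was closest at 0.04 log2 units, with 98.9 and 101 CPM for MSC-Exo against 161 and 154 for MSCATV-Exo. Cald1 (caldesmon, an actin-binding protein) and Arhgap11a followed at 0.12 each, and LOC108351947 and Myl9 (a myosin light chain) at 0.13 each. With 4 libraries such a profile is largely the difference of the groups, so many genes can be alike in it.

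Atf4 encodes the central transcription factor of the response. Its libraries held 99 and 90 counts for MSC-Exo and 197 and 163 for MSCATV-Exo, or 13.1 and 11.9 against 23.5 and 20.6 RPKM. Both MSCATV-Exo libraries lay above both MSC-Exo libraries. The group means were 17.1 ± 0.986 and 32.6 ± 4.94 CPM (SD, n = 2), 1.90-fold apart, with a log2 fold change of 0.93 ± 0.38 (SE) and 0.76 to 1.08 with a library left out. DESeq2 did not call it. The exact Poisson intervals of its counts (95%, for counting error alone) overlapped between the replicates of each group, as they did for Atf5. Nearest to Atf4 by the same measure was Tpm4 at 0.31 log2 units. Zeb2 (0.32), LOC108348483 (0.33), Atf5 itself (0.34) and Calr (0.35), the gene of the chaperone calreticulin, came after it. Atf4 lies on chromosome 7 from 121480723 to 121482781 on the plus strand, and no gene of the table overlaps it.

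For the other 8 genes the exact Poisson intervals of the replicates did not overlap in at least 1 group. Those intervals take each read as independent, and reads copied from the same molecule would make them too narrow. The intervals did not overlap for 5 of the 10 genes within MSC-Exo (Ddit3, Xbp1, Asns, Ppp1r15a and Chac1). Within MSCATV-Exo the same was seen for 5 (Atf3, Trib3, Sesn2, Ppp1r15a and Chac1). The share over all tested genes was not computed, so whether these counts are usual cannot be said. Among all tested protein-coding genes from 6 to 12 RPKM the replicates of a gene differed by a median of 1.35 times in MSC-Exo and 1.39 times in MSCATV-Exo, and at 100 RPKM or more by 1.21 and 1.11 times.

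Ddit3 encodes CHOP, a transcription factor that ATF4 induces and that promotes cell death under lasting stress. The counts of MSC-Exo were 41 and 74 and those of MSCATV-Exo 30 and 15, or 7.38 and 13.5 against 5.49 and 2.67 CPM. Both MSCATV-Exo libraries lay below both MSC-Exo libraries, opposite to Atf4. Its log2 fold change was -1.35 ± 0.81 (SE), and it went from -0.85 without MSC-Exo replicate 2 to -1.96 without MSCATV-Exo replicate 1. The locus of Ddit3 (chromosome 7, 70578564 to 70585074, plus strand) shares 1583 bases with Mbd6 and 64 bases with the tRNA synthetase gene Mars, both on the minus strand. Mbd6 had 7.30 and 6.87 RPKM for MSC-Exo and 4.87 and 6.94 for MSCATV-Exo, above Ddit3 in each library, so some reads in the shared stretch may belong to either gene.

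Atf3 encodes a transcription factor induced by many stresses. It had 49 and 27 counts in MSC-Exo, 0 in MSCATV-Exo replicate 1 and 59 in MSCATV-Exo replicate 2. The highest and the lowest value thus fell in the same group. The floor set for a count of 0 was 3 counts, or 0.267 RPKM, against 5.57 RPKM in the other MSCATV-Exo library. The 95% Poisson interval of that 0 reached 3.69 counts. The fit gave a log2 fold change of -0.38 ± 1.38 (SE), which turned to 0.61 without MSCATV-Exo replicate 1. Leaving out MSC-Exo replicate 1 gave 0.09 and leaving out MSC-Exo replicate 2 gave -0.74.

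Xbp1 encodes a transcription factor of the unfolded protein response, made active when the sensor IRE1 splices its mRNA. The table gives gene totals and does not separate the spliced form. MSC-Exo had 64 and 16 counts against 84 and 59 for MSCATV-Exo, so the groups overlapped and MSC-Exo replicate 2 stood apart at 1.62 RPKM against 5.72 to 7.67 in the others. Its log2 fold change of 0.84 ± 0.74 (SE) became 0.17 without MSC-Exo replicate 2, and leaving out replicate 1 instead gave 2.13.

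Asns encodes asparagine synthetase, a classic ATF4 target of amino acid shortage. Counts were 167 and 94 for MSC-Exo and 61 and 93 for MSCATV-Exo, or 30.1 and 17.2 against 11.2 and 16.6 CPM. The groups were separate by a narrow gap, between 17.2 and 16.6 CPM, with MSCATV-Exo lower. At -0.77 ± 0.48 (SE) over all libraries, its log2 fold change was -0.31 without MSC-Exo replicate 1 and -1.11 when replicate 2 was dropped instead. Dropping a MSCATV-Exo library gave -0.51 (replicate 1) or -1.07 (replicate 2).

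Chac1 encodes an enzyme that degrades glutathione and is induced by ATF4, ATF3 and CHOP. It had 103 and 53 counts in MSC-Exo, 6 in MSCATV-Exo replicate 1 and 89 in MSCATV-Exo replicate 2. The MSCATV-Exo replicates differed by 14.5 times in CPM, and the Poisson intervals of their counts were 2.20 to 13.1 and 71.5 to 110 counts. The groups overlapped. Its log2 fold change of -0.73 ± 0.93 (SE) rested on single libraries. It was -3.65 without MSCATV-Exo replicate 2 and 0.17 when replicate 1 was dropped instead, and dropping a MSC-Exo library gave -0.20 (replicate 1) or -1.12 (replicate 2).

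Sesn2 encodes sestrin 2, a leucine sensor that restrains the growth kinase complex mTORC1. MSC-Exo held 82 and 104 counts and MSCATV-Exo 175 and 101, or 14.8 and 19.0 against 32.0 and 18.0 CPM. MSCATV-Exo replicate 2 lay between the MSC-Exo libraries, and replicate 1 lay above them. With all libraries the log2 fold change was 0.57 ± 0.45 (SE), and it was 0.09 without MSCATV-Exo replicate 1 and 0.93 when replicate 2 was dropped instead. Dropping MSC-Exo replicate 1 gave 0.39.

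Trib3 and Ppp1r15a act as brakes. Trib3 encodes a pseudokinase that ATF4 and CHOP induce and that inhibits ATF4. Its counts were 78 and 58 for MSC-Exo and 25 and 55 for MSCATV-Exo, or 14.0 and 10.6 against 4.58 and 9.81 CPM. The groups were separate, with MSCATV-Exo lower. The log2 fold change of -0.77 ± 0.67 (SE) was -0.33 without MSCATV-Exo replicate 1 and -1.42 when replicate 2 was dropped instead. Ppp1r15a encodes GADD34, the subunit that directs a phosphatase to eIF2 and so ends the response. Counts of 48 and 97 in the MSC-Exo libraries stood against 177 and 87 for MSCATV-Exo, or 8.64 and 17.7 against 32.4 and 15.5 CPM, with overlapping groups. The log2 fold change of 0.86 ± 0.53 (SE) was 0.23 without MSCATV-Exo replicate 1, and dropping a MSC-Exo library gave 0.43 (replicate 1) or 1.47 (replicate 2).

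**Figure D3:**
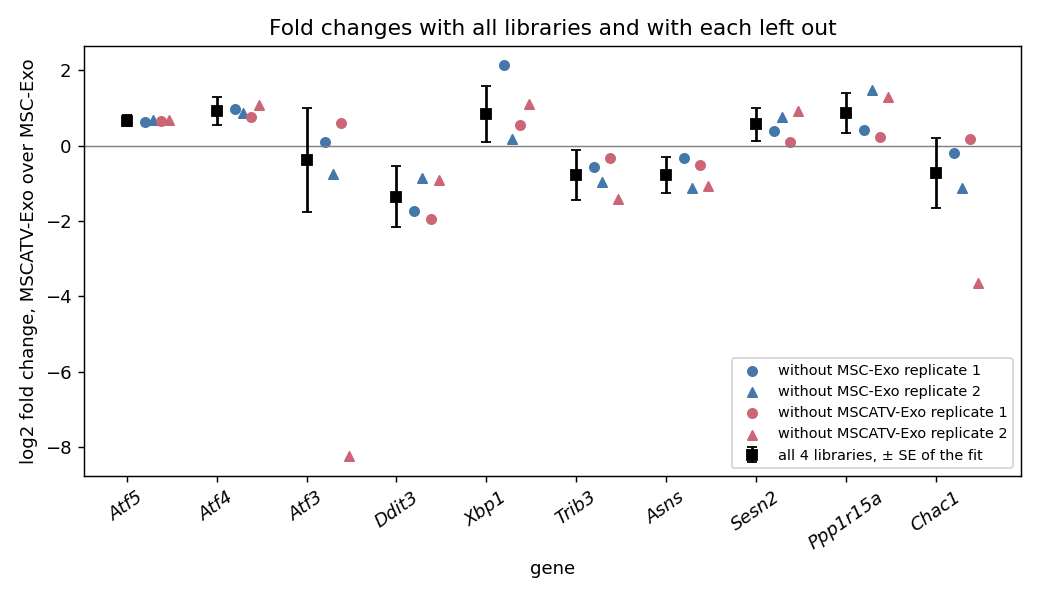
Log2 fold change of each gene, MSCATV-Exo over MSC-Exo, with all 4 libraries (black squares, bars are the SE of the fit) and with each library left out (coloured points, shape and colour as for the library left out). Atf5 keeps 0.63 to 0.69, while Atf3 and Chac1 cross 0; the lowest point of Atf3 is a fit against a lone library with 0 counts and gives no size.

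As a set the 10 genes did not share a direction. A log2 fold change above 0 was found for 5 of 10 (Atf5, Atf4, Xbp1, Sesn2 and Ppp1r15a), against 49.4% of all tested genes, and the median was 0.09 against -0.01. The groups did not overlap for 5 of 10, against 33.5% of tested genes. Atf5 and Atf4 were separate with MSCATV-Exo higher (16.1% of tested genes), and Ddit3, Asns and Trib3 with MSCATV-Exo lower (17.4%). The edgeR quasi-likelihood test with Benjamini-Hochberg adjustment called 0 of 33480 genes (0%), its smallest adjusted p over the table was 0.997, and 1236 genes (3.69%) had an unadjusted p under 0.05. DESeq2 called 106 of the 32181 genes it gave an adjusted p (0.329%), higher in MSCATV-Exo for 0.158% and lower for 0.171%, and Atf5 was the 1 gene of the 10 among them. The authors' deposited table gives 9 of the 10 a q-value under 0.05, all but Atf3, where it does so for 34.3% of 38021 genes. Of the 9, 5 are higher in that table (12.4% of its genes) and 4 lower (21.9%). The libraries of 4 of those 9 genes (Xbp1, Sesn2, Ppp1r15a and Chac1) overlapped between the groups. These shares stand beside genes that were picked from the same contrast, so nothing is read from them.

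Genes that feed into the response were listed by their textbook roles and not by how they moved, though earlier results of these data were known. By edgeR 0 members of any list below were called in either direction. Of 9 tested eIF2 kinases and regulators, 6 were above 0 and 3 below (median log2 fold change 0.21). Eif2ak2, the kinase PKR that senses viral RNA, had 124 and 131 counts for MSC-Exo and 245 and 175 for MSCATV-Exo. Both MSCATV-Exo libraries were higher, at a log2 fold change of 0.72 ± 0.35 (SE). Eif2ak1, the haem-regulated kinase, had 29 and 98 against 45 and 81 counts (-0.03 ± 0.70, SE), and Gcn1l1, an activator of the amino acid sensor GCN2, 419 and 353 against 388 and 335 (-0.10 ± 0.27). The median went from 0.03 without MSCATV-Exo replicate 2 to 0.47 without MSC-Exo replicate 2.

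Of 10 genes listed for eIF2 and its exchange factor eIF2B, 7 were above 0 (median 0.45). Among them was Eif2a (0.54 ± 0.69, SE), which is described as initiation factor 2A and is not a subunit of either. The median was 0.41 when MSC-Exo replicate 2 was dropped and 0.27 to 0.29 when any of the other 3 libraries was. Eif2s2, an eIF2 subunit, had 12.7 and 10.3 against 14.1 and 16.3 RPKM, and Eif2b2, of eIF2B, had 9.05 and 16.5 against 6.53 and 9.62 RPKM. Eif2b5, another eIF2B subunit, had 10.1 and 5.58 against 8.32 and 6.65 RPKM. Of the 4 genes of the eIF2 phosphatase beside Ppp1r15a, 2 were above 0, with Ppp1ca, a catalytic subunit, at 28.2 and 18.0 against 19.0 and 20.8 RPKM. Ppp1cc, another catalytic subunit, had 56 and 33 against 54 and 143 counts (1.13 ± 0.63, SE). Ppp1r15b, the constitutive eIF2-directing subunit, had 106 and 155 against 197 and 125 (0.30 ± 0.41, SE). Both had overlapping groups. Ppp1cb, also a catalytic subunit, was lower in both MSCATV-Exo libraries, with 123 and 111 against 42 and 54 counts (-1.29 ± 0.50, SE). The median of these 4 genes was 0.09, and -0.10 without MSCATV-Exo replicate 1.

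Dimer partners and relatives of ATF4 and ATF5 in the bZIP family had 13 of 18 members above 0 (median 0.22). It was 0.09 without MSC-Exo replicate 1 and 0.63 when replicate 2 was dropped instead. The most abundant were Nfe2l1, a regulator of proteasome genes, at 12.2 and 13.1 against 11.0 and 20.1 RPKM, Junb at 7.54 and 8.89 against 11.0 and 11.5, and Cebpd at 10.0 and 12.5 against 8.27 and 5.65. The highest mean of that list, 14.1 RPKM for Nfe2l1, was far below the 287 RPKM of Atf5.

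Among the targets of ATF4, genes of amino acid synthesis and one-carbon metabolism stood on the lower side, with 2 of 13 above 0 and 11 below (median -0.18). Dropping MSC-Exo replicate 1 gave a median of -0.43 and dropping MSC-Exo replicate 2 one of -0.03, and for a MSCATV-Exo library it was -0.27 (replicate 1) or -0.13 (replicate 2). Psat1, of serine synthesis, had 130 and 123 counts for MSC-Exo and 119 and 64 for MSCATV-Exo (log2 fold change -0.47 ± 0.46, SE). Phgdh, the first enzyme of that pathway, had 50 and 138 against 100 and 51 (-0.32 ± 0.61), and Shmt2, of mitochondrial one-carbon metabolism, 130 and 127 against 116 and 137 (-0.03 ± 0.38). Aldh18a1 was listed at 0 in all 4 libraries.

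Amino acid transporters had 5 of 9 above 0 (median 0.08, -0.03 without MSCATV-Exo replicate 1 and 0.28 when replicate 2 was dropped instead). The most abundant, the glycine transporter gene Slc6a9, had 10.5 and 9.61 against 4.15 and 11.4 RPKM (-0.29 ± 0.44, SE), with overlapping groups. Slc1a4, of neutral amino acid uptake, also overlapped, at 7.21 and 7.67 against 9.01 and 6.62 RPKM (0.18 ± 0.49, SE). Slc3a2, a transporter heavy chain, had 7.10 and 5.93 against 8.49 and 7.90 RPKM (0.44 ± 0.48, SE), with MSCATV-Exo higher in both libraries. The tRNA synthetases and the tRNA exporter Xpot had 10 of 13 above 0 (median 0.28, 0.07 without MSC-Exo replicate 2, and 0.42 when MSCATV-Exo replicate 1 was dropped), and the groups did not overlap for 6 with MSCATV-Exo higher (16.1% of all tested genes) and for 1 with it lower (17.4% of all tested genes). Sars had 157 and 95 against 162 and 162 counts (0.36 ± 0.39, SE), Yars 99 and 139 against 161 and 128 (0.27 ± 0.40, SE) and Gars 161 and 115 against 93 and 154 (-0.17 ± 0.41). Of 18 other ATF4 and CHOP targets 10 were above 0 (median 0.07, -0.16 without MSC-Exo replicate 1). The autophagy gene Map1lc3b stood lower in both MSCATV-Exo libraries, with 211 and 204 against 161 and 89 counts (-0.73 ± 0.39, SE), while Eif4ebp1, a translation repressor, had 114 and 52 against 125 and 105 (0.47 ± 0.50, SE). Sqstm1, an autophagy receptor gene, had 185 and 177 against 146 and 172 counts (-0.19 ± 0.33, SE).

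**Figure D4:**
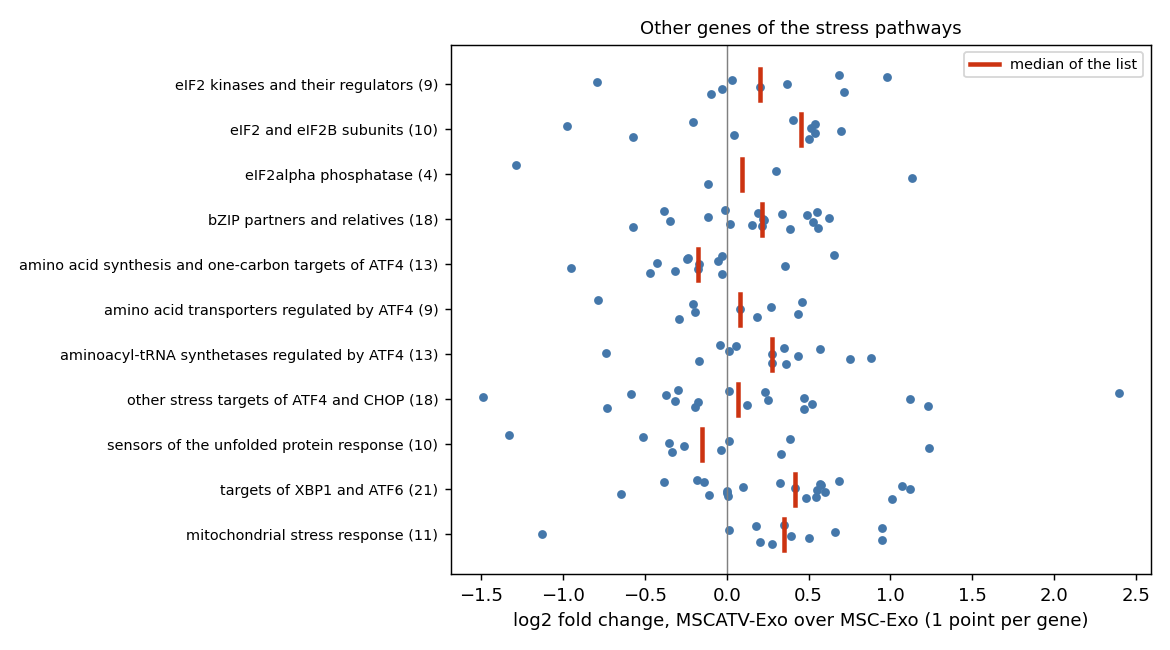
Log2 fold change, MSCATV-Exo over MSC-Exo, of each tested gene (blue points) in the other lists of the stress pathways, with the number of genes in brackets and the list median as a red bar. Points of most lists lie on both sides of 0. The medians go from -0.18 for amino acid synthesis to 0.45 for the list of eIF2 and eIF2B, which also holds Eif2a.

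In the unfolded protein response, whose PERK arm feeds into the integrated stress response, other sensors work through XBP1 and ATF6. Of 10 genes listed as sensors and membrane-bound factors, 4 were above 0 (median -0.15). That list also held Traf2, described as a TNF receptor-associated factor, and Mbtps1 and Mbtps2, described as peptidases. The median was 0.10 without MSC-Exo replicate 2, and -0.27 or -0.03 when MSCATV-Exo replicate 1 or 2 was dropped. Creb3l1 had 8.84 and 8.20 against 10.4 and 9.47 RPKM and Atf6b 6.37 and 10.8 against 6.42 and 6.28, and Ern2, of the IRE1 type, 7.18 and 8.43 against 7.99 and 6.08. Of 21 tested targets of XBP1 and ATF6, 15 were above 0 (median 0.42), but the median was 0.09 without MSCATV-Exo replicate 1. Calr supplied the highest level, 81.0 and 98.6 RPKM against 167 and 169.5, at a log2 fold change of 1.01 ± 0.20 (SE). DESeq2 called Calr alone in the list, beside 0.329% of all genes it gave an adjusted p, and edgeR called 0. Hsp90b1, another chaperone of the endoplasmic reticulum, had 14.3 and 25.0 against 22.6 and 29.1 RPKM (0.48 ± 0.32). Sec61b, of the translocon, had 11.0 and 25.9 against 37.7 and 11.4 (0.55 ± 0.71). Groups that did not overlap, MSCATV-Exo higher and lower (16.1% and 17.4% of all tested genes), were also counted in the other lists. They were 2 and 0 of 9 eIF2 kinases and regulators, and 2 and 0 of 10 eIF2 and eIF2B genes. Phosphatase genes had 0 and 1 of 4 and the bZIP list 2 and 1 of 18. Amino acid synthesis had 1 and 3 of 13 and transporters 2 and 0 of 9. Other ATF4 and CHOP targets had 3 and 5 of 18. The sensor list had 2 and 0 of 10 and XBP1 and ATF6 targets 5 and 0 of 21.

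ATF5 is known in mammalian cells for inducing chaperones and proteases of mitochondria under stress. A list of mitochondrial stress genes held such targets beside factors known for the same response in worms, such as Ubl5. Of its 11 tested genes, 10 were above 0 and 1 below, with a median log2 fold change of 0.35. Above 0 were 49.4% of all tested genes, and 54.3% of tested protein-coding genes from 6 to 12 RPKM. Yme1l1, also on the list, stood at 0 in all 4 libraries. Whether these genes follow Atf5 was not tested. The median was 0.18 without MSC-Exo replicate 1, and dropping replicate 2 instead gave 0.74. The groups did not overlap for 5 with MSCATV-Exo higher (16.1% of all tested genes) and for 1 with it lower (17.4% of all tested genes). Lonp1, the matrix protease, had 133 and 170 counts for MSC-Exo and 189 and 401 for MSCATV-Exo, 8.40 and 10.7 against 10.7 and 24.2 RPKM (0.95 ± 0.39, SE), with MSCATV-Exo replicate 2 apart from the other 3 libraries. Hspe1, a chaperonin, had 26 and 55 against 41 and 53 counts (0.20 ± 0.74) and Ubl5 33 and 45 against 53 and 42 (0.28 ± 0.72), with overlapping groups. The median level of the list was 8.37 RPKM, inside the range that most protein-coding genes share.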

How the data were processed

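For the 4 libraries the authors deposited whole-number read counts of each gene and RPKM values. Recomputing RPKM from the deposited counts, lengths and count totals gave the deposited RPKM values. Per the submitters' processing notes TopHat2 and the rat build named rn6 and Rnor_6.0 were used; the counter and the annotation release are not given in the sources used here. Per the labels RNA was cut to about 200 bp and libraries were made with the NEBNext Ultra kit. The authors' deposited comparison gives mean RPKM, a log2 ratio and p-values and q-values from a test that is not stated. The quasi-likelihood test of edgeR 4.0.16 (R 4.3.3) was fitted over all genes that filterByExpr kept, with TMM factors; it was two-sided, at an adjusted p of 0.05 after Benjamini-Hochberg. DESeq2 1.42.0 was an alternative. Log2 fold changes are from edgeR, and SE is the log2 fold change over the root of F.

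The 10 genes and the lists were chosen with earlier results of these data known. From each pathway list the 3 genes with the highest mean RPKM were named, by a rule that looks at level and not at change. A few others were named besides, such as Ppp1cb, which completes the phosphatase list. The floor set for a count of 0 was 3 counts, 0.504 to 0.561 CPM. Poisson intervals cover counting error only, because the reads carry no molecular identifiers and may be copies of the same molecule. Gene names are those of the deposited table. No rat sequence was used here.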

Additional observations from a re-analysis of the deposited data

How the results depend on the processing

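The number of genes that passed the adjusted p was 0 with edgeR on all 4 libraries, 106 with DESeq2, 8 with no filter on low counts and 4 with the replicate number as a block, and 1 to 168 with a library left out. Atf5 had a log2 fold change of 0.67 with DESeq2, where it passed. With edgeR it was 0.66 with TMM and 0.56 with library totals in its place. Atf5 passed under none of the edgeR settings that used all 4 libraries, TMM included. Without a library it was 0.63 to 0.69. The number of stress response genes above 0 was 5 of 10 under each alternative that used all 4 libraries and 5 to 7 of 10 with a library left out. Left-out libraries gave Atf3 -8.24 to 0.61 and Chac1 -3.65 to 0.17. Atf3 turned direction without MSC-Exo replicate 1 (0.09) or MSCATV-Exo replicate 1 (0.61), and Chac1 did so without MSCATV-Exo replicate 1 (0.17). Under the block Atf3 was at -1.83 and Chac1 at -1.43. The same replicate number is not known to pair libraries, so this block is a setting and not the design. Deviations of same-numbered libraries from their group means had a correlation of -0.00052. This cannot exclude a pairing, because counting error at low counts could hide it. Library totals without a factor lowered the value of each of the 10 genes, that of Atf4 from 0.93 to 0.82. Counts under 100, as for 9 of the 10 genes in at least 1 library, limit what can be seen at this depth. The cause of these changes was not tested.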
